A study of Mus musculus with 36 samples.

Results

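The response of mouse fibroblasts to interferon gamma (IFN gamma) was followed in RNA made during the whole first hour of treatment. NIH-3T3 fibroblasts, a long-established mouse cell line, were given fresh medium holding 100 U/ml IFN gamma or mock medium, and 4-thiouridine (4sU) was present at 200 µM from 0 to 60 min; 4sU is a modified nucleoside that enters RNA during transcription, so that newly transcribed RNA can be told from older RNA. The comparison takes the 6 arrays so labelled, 3 with IFN gamma and 3 with mock, of 36 arrays in all. The series also holds IFN alpha at 100 U/ml and 3 windows labelled at 500 µM for 30 min (0-30, 30-60 and 150-180 min after the medium change); of these, the 3 arrays with IFN alpha over 0-60 min and the IFN gamma and mock arrays of 0-30 and 30-60 min were set beside the hour-long window. All groups are 1 cell line and all received fresh medium at the start, so the mock arrays carry the response to the medium change as well. Nothing in the labels says whether the 3 numbered arrays of a group came from separate cultures, and p-values therefore measure a spread between arrays that may be technical.

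IFN gamma binds a receptor of 2 chains, Ifngr1 and Ifngr2, which carry the kinases Jak1 and Jak2. Signalling from the receptor leads to binding at gamma-activated sites (GAS) near the target genes. The first targets include Irf1, a transcription factor that in turn acts on a second set of genes through interferon-stimulated response elements (ISRE), and Socs1 and Socs3, which switch the receptor off. Type I interferons such as IFN alpha use a separate receptor and act mainly through the ISRE, by a complex that holds STAT2 and IRF9. In fibroblasts IFN gamma is best known for inducing GTPases that attack intracellular parasites, the machinery that presents peptides on MHC class I, and chemokines that draw T cells.

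Values are log2 levels from Affymetrix arrays, each gene read from 1 probe set, and 9549 genes were tested. A gene is said to be called, to have risen or to have fallen where limma's moderated test gave a Benjamini-Hochberg adjusted p under 0.05 over all of them. The spread of a gene between arrays was larger over 0-60 min than in the other windows: the median SD within a group was 0.24 over 0-60 min, 0.15 over 0-30 min and 0.22 over 30-60 min. Within that window it was 0.215 with IFN gamma, 0.236 with IFN alpha and 0.393 in mock. Mock array 1 correlated with its 2 mates at 0.91 over genes, while the mates correlated with each other at 0.987. It differed from the mean of its mates by more than 1 log2 unit in 2500 genes (26.2%), against 586 for mock array 2 and 501 for mock array 3. Its Gapdh control probe sets read 2.67 log2 units higher at the 3′ end than at the 5′ end, against -0.42 to 0.25 on the other 8 arrays of this window; this difference is a common measure of RNA or target length. Its part in single results was not tested beyond leaving the array out, and the counts over all genes are given with and without it, as are list counts that change and values of several leading genes. The cells read as fibroblasts: the 21 fibroblast markers had a median level of 9.74 and Vim reached 13.24, while no epithelial marker of 9 passed the filter on low values, and 2 of 12 macrophage markers (the higher, Cd14, at 7.05), 3 of 10 adipocyte and muscle markers (the highest, Lpl, at 6.51) and 1 of 8 endothelial markers (Flt1, 4.16) did.

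Over the first hour IFN gamma changed 120 of 9549 genes (1.26%), of which 106 rose (1.11%) and 14 fell (0.147%), counted at an adjusted p under 0.05 with all 9 arrays of the window in the fit. Without mock array 1 the counts were 153 higher (1.6%) and 40 lower (0.419%). Of the 106 risers 105 were called again without that array, and so were all 14 fallers. The exception was Calhm5, a calcium homeostasis modulator named here because it is the 1 gene lost, at 1.81 ± 0.35 log2 units with all arrays and 1.59 ± 0.36 without mock array 1 (SE, adjusted p = 0.0336 and 0.0611). Arrays of the same number deviated together across the treatments, and with the array number as a block 159 genes were higher (1.67%) and 46 lower (0.482%); these held all 106 risers and 13 of the 14 fallers. Leaving out IFN gamma array 2 gave the lowest count, 58 higher and 4 lower. The balance of directions moved with the fit: the fit of all 36 arrays gave 366 rises and 277 falls, and the block with mock array 1 left out gave 460 rises and 536 falls. The rises of the 9-array fit were the larger changes: 103 of the 106 exceeded 2-fold and 27 exceeded 8-fold, while 12 of the 14 falls exceeded 2-fold and 0 exceeded 8-fold. In 29 of the 106 risers the mean level of the mock arrays was under 4, near the bottom of the scale, where a fold depends on how the authors' processing treats background. The counts of gene lists that follow are to be read against the shares over all genes, 1.11% higher and 0.147% lower with all arrays. List counts without mock array 1 are to be read against 1.6% higher and 0.419% lower. Those with the array block are to be read against 1.67% and 0.482%.

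**Figure D1:**
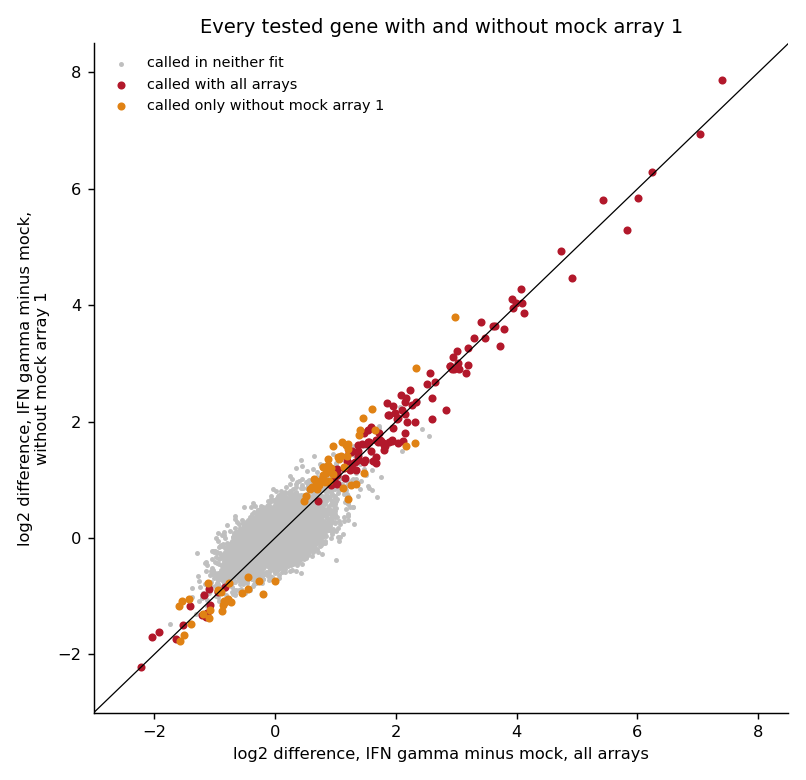
Each point is 1 of 9549 genes; the x axis is the log2 difference between IFN gamma and mock over 0-60 min with all arrays and the y axis the same without mock array 1, with the line of equal values. The 106 risers and 14 fallers called with all arrays (red) lie along the line, and of the genes called only without mock array 1 (orange), 48 higher and 26 lower, 73 have the same direction on both axes.

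Transcription factors at the head of the pathway rose. Irf1 had levels of 12.99, 13.10 and 13.18 on the IFN gamma arrays, against 8.78, 8.21 and 8.10 on the mock arrays. The lowest IFN gamma array lay far above the highest mock array, which was mock array 1; the difference was 4.73 ± 0.21 (SE, 26.5-fold, adjusted p = 2.62e-06), and 4.94 ± 0.16 without mock array 1. Stat2, a transcription factor of the type I pathway, reached 6.23, 7.63 and 7.55 with IFN gamma and lay at 3.21, 3.21 and 3.16 in mock, a difference of 3.94 ± 0.45 (adjusted p = 0.00128). Irf9, a DNA-binding subunit of the complex that acts on the ISRE, averaged 8.48 with IFN gamma and 5.18 in mock (3.30 ± 0.26, adjusted p = 0.000114). Of the 14 STAT and IRF family genes and co-regulators tested, 4 rose (5 without mock array 1) and none fell, and the median difference was 0.15, against -0.05 over all genes. The 4th was Stat3, averaging 10.63 with IFN gamma and 9.26 in mock (1.37 ± 0.21, adjusted p = 0.00849), named here to complete the count; its 3 other probe sets differed by 0.20, 2.12 and 1.23 and none was called. Cebpd, a leucine zipper factor of acute responses, read 12.32, 12.43 and 12.29 with IFN gamma and 11.84, 10.66 and 10.31 in mock. Its difference of 1.41 ± 0.32 was not called with all arrays (adjusted p = 0.074), whereas the 1.86 ± 0.13 found without mock array 1 was (adjusted p = 0.000113). Nlrc5, an activator of MHC class I genes, lay at the bottom of the scale in both groups, at 2.37 to 2.38 with IFN gamma and 2.38 to 2.40 in mock. Gbp5 had no listed probe set of its own, and the single-symbol probe sets of Irf8 and Psmb8 did not pass the filter on low values.

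The receptor chains and their kinases gave no call in the fit with all arrays and no block. Among the 9 receptor and kinase genes tested, 0 rose and 0 fell, with a median difference of 0.07. Without mock array 1, 1 rose, and with the array block 2 did. Ifngr1 read 5.09, 5.81 and 5.84 with IFN gamma and 5.98, 5.11 and 5.43 in mock, so that the groups overlapped (0.07 ± 0.30). Ifngr2 differed by -0.24 ± 0.30, Jak1 by 0.41 ± 0.22 and Jak2 by 0.01 ± 0.24. Ifnar2, a chain of the type I receptor, was called higher without mock array 1 (1.40 ± 0.20, adjusted p = 0.00445) and with the array block (1.08 log2 units, adjusted p = 0.022), and not in the fit with all arrays and no block (1.08 ± 0.28, adjusted p = 0.146).

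Of the 18 feedback inhibitors tested, 3 rose and none fell, all of them SOCS-box proteins that bind activated cytokine receptors or their kinases. Socs3 was read at 14.00, 14.11 and 13.96 with IFN gamma and at 11.23, 10.79 and 11.35 in mock, a difference of 2.90 ± 0.17 (7.46-fold, adjusted p = 2.14e-05). Socs1 reached 8.13, 9.16 and 8.20, against 5.88, 5.52 and 5.27 in mock (2.94 ± 0.39, adjusted p = 0.00362). Cish, best known as a target of STAT5, rose by 2.17 ± 0.26 (adjusted p = 0.00202). For all 3, as for all 106 risers, the lowest IFN gamma array lay above the highest mock array. The other 15, among them the PIAS proteins, the phosphatases Ptpn1, Ptpn2 and Ptpn11, and the remaining SOCS genes, lay between -0.53 and 0.89.

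**Figure D2:**
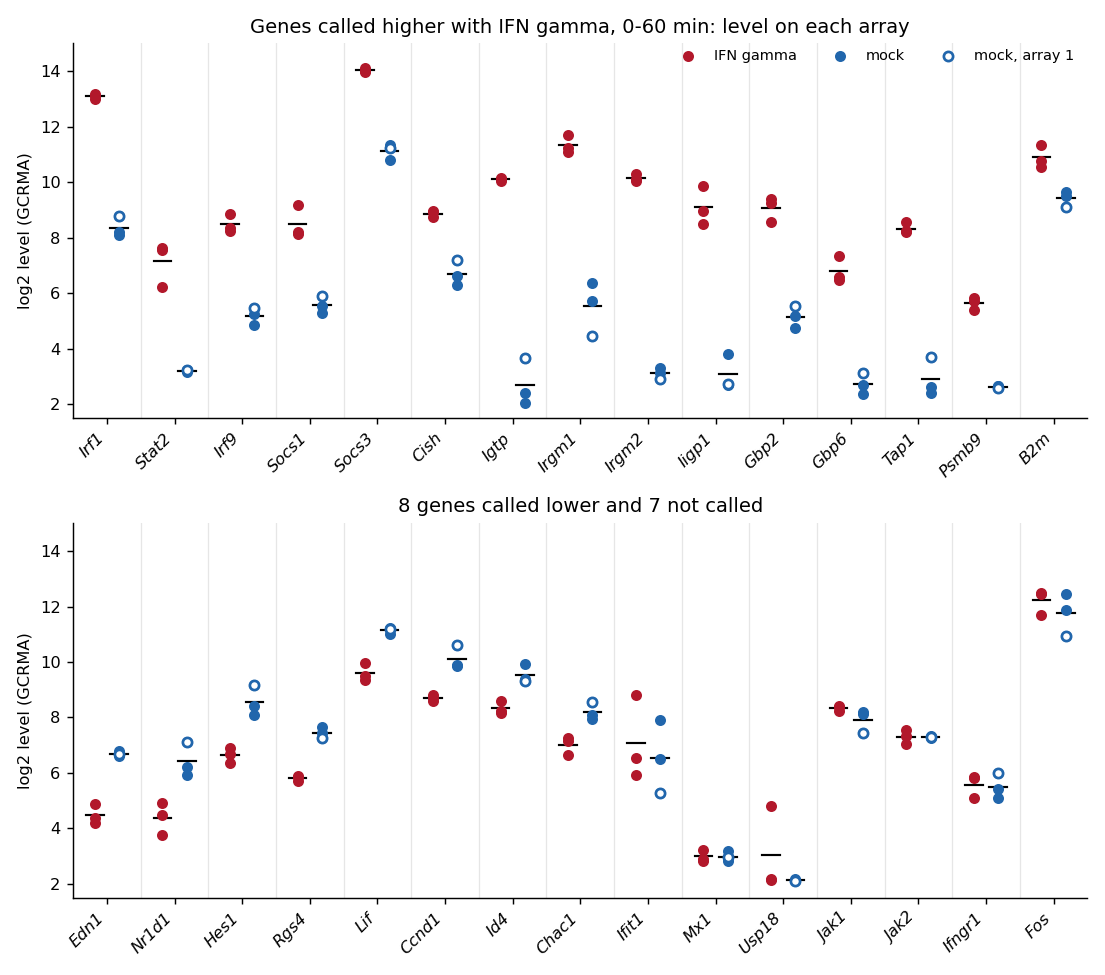
Log2 level of 30 genes on each array over 0-60 min, IFN gamma (red) left of mock (blue), with black bars at the group means and mock array 1 drawn as an open circle. All 15 genes of the upper panel have every IFN gamma array above every mock array, as all 106 risers do. The 8 called fallers of the lower panel were picked for groups that do not overlap, with every IFN gamma array below every mock array. The groups of Ifit1, Mx1, Jak2, Ifngr1 and Fos overlap.

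The immunity-related GTPases (IRG), which coat and break the vacuoles of intracellular parasites, held 4 of the 5 largest rises among the genes tested, each read from a probe set with 1 symbol. Of 7 IRG genes tested 5 rose, with a list median of 5.82 (5.30 without mock array 1) against -0.05 over all genes. Igtp had 10.14, 10.11 and 10.03 on the IFN gamma arrays and 3.65, 2.41 and 2.04 on the mock arrays, the highest of these being mock array 1. Its difference was 7.40 ± 0.41 with all arrays (adjusted p = 1.77e-05) and 7.87 ± 0.29 without that array. Irgm2 read 10.28, 10.13 and 10.04 against 2.90, 3.31 and 3.11 in mock (7.04 ± 0.24, adjusted p = 3.96e-07). Irgm1, which regulates the other members, stood at 11.25, 11.69 and 11.09 with IFN gamma and 4.46, 6.36 and 5.73 in mock, where mock array 1 was the lowest; the difference was 5.82 ± 0.44 with it and 5.30 ± 0.32 without it. Iigp1, an effector that loads onto the vacuole, rose by 6.01 ± 0.58 (adjusted p = 0.000502) and Ifi47 by 4.12 ± 0.51 (adjusted p = 0.00242). Gm4951 and Irgq were not called, at 0.19 and -0.50. Gm4951 averaged 3.35 with IFN gamma and 3.16 in mock, near the bottom of the scale. The mock levels of Igtp, Irgm2 and Iigp1 lay near the bottom of the scale, so the sizes depend on background: after adding 16 to the linear values the differences were 5.59, 5.55 and 4.50, each still called.

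The guanylate-binding proteins, a second family of interferon-inducible GTPases that act on vacuoles and bacteria in the cytosol, followed with smaller differences. Of 6 tested 4 rose, and the list median was 3.38. Gbp6 read 6.58, 7.33 and 6.47 with IFN gamma and 3.13, 2.35 and 2.67 in mock (4.08 ± 0.40, adjusted p = 0.00059). Gbp2 reached 9.38, 9.25 and 8.56, against 5.51, 4.74 and 5.16 in mock (3.93 ± 0.48, adjusted p = 0.00228). Gbp7 rose by 3.79 ± 0.49 and Gbp3 by 2.97 ± 0.52 (adjusted p = 0.00311 and 0.02). The call for Gbp3 was lost when IFN gamma array 1, IFN gamma array 2 or mock array 3 was left out, with an adjusted p of up to 0.107. Gbp2b and Gbp8 differed by 0.003 and -0.014, at the bottom of the scale in both groups. They averaged 2.055 and 2.890 with IFN gamma and 2.052 and 2.904 in mock. These families hold near-identical copies, and a probe set may read more than 1 of them.

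The promoters of the risers were read for the letters of the GAS and the ISRE. A GAS was searched as TTCNNNGAA and an ISRE core as GAAA repeated after any 2 bases, on both strands, in 300 bases around each start (250 before, 50 after) from the RefSeq promoters of GRCm38.p6; the 2 patterns may overlap. Of 106 risers 85 had at least 1 promoter in that table, 108 promoters in all, and 24 of them (22.2%) held a GAS match and 17 (15.7%) an ISRE match, 6 holding both. Among the 10013 promoters of all tested genes 657 (6.6%) held a GAS match and 298 (3.0%) an ISRE match. For the fallers, 2 of 13 promoters held a GAS match and 1 of 13 an ISRE match. Promoters were counted singly, so a gene with several starts can count more than once. Both GAS promoters of the fallers belong to 1 gene, Bcl6, and among the risers 2 overlapping promoters of Sphk1 hold the same GAS match. These are counts of letters in a window and were not tested. The 180 bases before the start are shown for 3 risers with a GAS match (Irf1, Socs3 and the adhesion molecule Icam1), for 2 IRG genes with both and for Gbp2 with an ISRE match, in lower case with the matched letters in capitals.
Irf1 (chr11:53769834-53770013, + strand): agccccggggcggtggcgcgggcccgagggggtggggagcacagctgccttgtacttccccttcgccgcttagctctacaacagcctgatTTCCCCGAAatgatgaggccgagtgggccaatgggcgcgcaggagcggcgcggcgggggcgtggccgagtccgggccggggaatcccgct
Socs3 (chr11:117969367-117969546, - strand): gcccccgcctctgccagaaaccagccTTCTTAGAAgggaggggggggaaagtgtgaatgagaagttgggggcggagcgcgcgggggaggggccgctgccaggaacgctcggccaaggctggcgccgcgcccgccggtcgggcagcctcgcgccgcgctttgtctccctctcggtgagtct
Icam1 (chr9:21015760-21015939, + strand): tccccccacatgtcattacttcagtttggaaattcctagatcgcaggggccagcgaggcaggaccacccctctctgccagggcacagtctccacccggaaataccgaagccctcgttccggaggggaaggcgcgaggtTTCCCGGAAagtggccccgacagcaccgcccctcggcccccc
Igtp (chr11:58199376-58199555, + strand): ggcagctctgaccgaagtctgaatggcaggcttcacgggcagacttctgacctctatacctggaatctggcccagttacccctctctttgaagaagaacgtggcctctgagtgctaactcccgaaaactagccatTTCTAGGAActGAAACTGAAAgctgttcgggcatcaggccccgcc
Irgm2 (chr11:58214797-58214976, + strand): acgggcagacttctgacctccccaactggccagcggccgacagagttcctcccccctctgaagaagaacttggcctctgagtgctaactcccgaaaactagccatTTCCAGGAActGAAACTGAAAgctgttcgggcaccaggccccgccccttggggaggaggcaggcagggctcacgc
Gbp2 (chr3:142620483-142620662, + strand): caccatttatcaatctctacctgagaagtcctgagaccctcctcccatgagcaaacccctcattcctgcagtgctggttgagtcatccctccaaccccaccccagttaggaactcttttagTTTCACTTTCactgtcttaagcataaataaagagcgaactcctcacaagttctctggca
In Irf1 the GAS match begins 90 bases before the start, in Socs3 154 and in Icam1 42. In Igtp and in Irgm2 a GAS match is followed 2 bases on by an ISRE match, GAAACTGAAA in both, and the pair begins 45 bases before the start of Igtp and 75 before that of Irgm2. In Gbp2 the ISRE match lies on the opposite strand and reads TTTCACTTTC, 59 bases before the start.

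Genes that prepare and carry peptides for MHC class I divided into a few large rises and many genes below the threshold. Of 17 tested 3 rose and none fell, with a list median of 0.47 (5 rose without mock array 1 and 4 with the array block). Tap1, a subunit of the pump that moves peptides into the endoplasmic reticulum, read 8.55, 8.20 and 8.23 with IFN gamma and 3.68, 2.41 and 2.61 in mock (5.42 ± 0.37, adjusted p = 6.74e-05; 5.81 ± 0.28 without mock array 1). Psmb9, a catalytic subunit of the immunoproteasome, reached 5.73, 5.82 and 5.40, against 2.56, 2.65 and 2.63 in mock (3.04 ± 0.23, adjusted p = 0.000114). B2m, the light chain shared by class I molecules, was read at 10.56, 11.33 and 10.78 with IFN gamma and 9.10, 9.64 and 9.51 in mock, a rise of 1.47 ± 0.25 (adjusted p = 0.0162) whose call was lost without IFN gamma array 2 or array 3 (adjusted p of up to 0.0877). The class I heavy chain H2-K1 read 8.63, 8.95 and 9.06, against 8.57, 7.89 and 8.16 in mock. Its groups did not overlap, yet the difference of 0.68 ± 0.23 was not called (adjusted p = 0.336; 0.86 ± 0.20 and 0.0663 without mock array 1). H2-D1, another heavy chain, named after its values were seen, was called without mock array 1 (0.98 ± 0.16, adjusted p = 0.0133) and with the array block (adjusted p = 0.0463), and not otherwise (0.89 ± 0.18, adjusted p = 0.0511). The proteasome activator Psme1 was called without mock array 1 (1.14 ± 0.22, adjusted p = 0.0267) and not with it (0.93 ± 0.26, adjusted p = 0.189). No class II gene of 10 on the array passed the filter on low values.

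Of 19 chemokine and cytokine genes tested 2 rose and 1 fell, or 3 and 2 without mock array 1. With the array block 3 rose and 1 fell. Cxcl9 and Cxcl10 encode ligands of CXCR3, a receptor of activated T cells. Cxcl9 read 8.23, 9.86 and 8.16 with IFN gamma and 2.57, 2.48 and 2.45 in mock (6.25 ± 0.80, adjusted p = 0.00291); a second probe set of the gene differed by 0.40 and was not called. Cxcl10 reached 10.37, 11.87 and 10.14, against 4.97, 7.12 and 5.55 in mock, a difference of 4.92 ± 0.74 (adjusted p = 0.00808) that missed the threshold without IFN gamma array 2 (adjusted p = 0.0514). Array 2 was the highest of its group for Cxcl10 in IFN gamma and in mock alike. Lif, a cytokine of the IL-6 family, went the other way at 9.35, 9.51 and 9.98 with IFN gamma and 11.19, 11.02 and 11.21 in mock (-1.53 ± 0.20, adjusted p = 0.00311). Cx3cl1, a membrane-bound chemokine, was called higher without mock array 1 (1.65 ± 0.26, adjusted p = 0.00856), since that array read 8.66 and its mates 7.05 each.

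The antiviral genes typical of type I interferon mostly gave no call. Of 58 tested 6 rose and none fell, with a median of 0.22. Over all genes 1.11% rose and the median was -0.05, so risers were still a larger share here. In this list 8 rose without mock array 1 and 10 with the array block. Samhd1, which depletes the nucleotides that retroviruses need, had 9.67, 9.40 and 9.78 with IFN gamma and 6.05, 5.79 and 6.17 in mock (3.61 ± 0.26, adjusted p = 9.57e-05). Trim21, a cytosolic antibody receptor, rose by 2.90 ± 0.36 and Parp9, an ADP-ribosylation factor of the interferon response, by 2.57 ± 0.40 (adjusted p = 0.00251 and 0.0096). The others called were Ifitm2, Trim25 and Ifitm3, which limit viral entry or assist RNA sensing; Ifitm3 rose by 1.47 ± 0.27 with all arrays (adjusted p = 0.0232) and by 1.81 ± 0.15 without mock array 1, but lost its call when any other array was left out (adjusted p of up to 0.13). By contrast Mx1 stayed at 2.82, 3.24 and 2.91 with IFN gamma and 2.98, 3.18 and 2.81 in mock. Ifit1 read 6.54, 8.79 and 5.91, against 5.26, 7.89 and 6.49 in mock, so array 2 was the highest in both groups and the groups overlapped; the difference was 0.53 ± 0.78 with all arrays and -0.11 ± 0.77 without mock array 1. Usp18, which dampens type I signalling, was at 2.17, 4.80 and 2.14 with IFN gamma and 2.12 to 2.16 in mock, so that its difference of 0.89 ± 0.68 came from IFN gamma array 2.

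Several further immune genes rose. Of 13 genes of cell death and immune checkpoints 2 were called, or 5 without mock array 1 and 6 with the array block. Casp4, which senses bacterial lipopolysaccharide in the cytosol, read 7.23, 7.61 and 7.27 with IFN gamma and 5.46, 5.03 and 5.30 in mock (2.11 ± 0.23, adjusted p = 0.000958). Ripk3, a kinase of necroptosis, lay at 4.63, 4.68 and 4.68, against 2.71, 2.62 and 2.61 in mock (2.01 ± 0.20, adjusted p = 0.000658). Cd274, which encodes the checkpoint ligand PD-L1, was read at 4.88, 5.65 and 4.82 with IFN gamma and 2.73, 2.86 and 2.65 in mock. Its groups lay 2.37 ± 0.60 apart. The difference was not called in the fit with all arrays (adjusted p = 0.129) or without mock array 1 (0.178). It was called under the array block (0.0461) and in the fit of all 36 arrays (8.48e-05). The IFN alpha arrays, at 5.51, 7.53 and 4.60 over 0-60 min, lend their spread to the SE of 0.60. The SD of Cd274 was 0.46 with IFN gamma and 0.11 in mock. Fas, a death receptor, was called without mock array 1 (1.42 ± 0.24, adjusted p = 0.0135) and with the block (adjusted p = 0.00529). Of 19 targets of NF-kB 3 rose (4 without mock array 1 and 4 with the block). Tnfaip2 rose by 2.94 ± 0.21, Icam1 by 2.34 ± 0.19 and Sod2 by 1.94 ± 0.27 (adjusted p = 9.9e-05, 0.000183 and 0.00476). Icam1 read 4.52, 5.22 and 4.60 with IFN gamma and 2.45, 2.46 and 2.42 in mock, where it lay near the bottom of the scale. Nfkbia and Tnfaip3, classical targets of NF-kB, were not called, at -0.09 and -0.28. Bcl3 was called without mock array 1 (2.06 ± 0.28, adjusted p = 0.00412) and with the block (1.46, adjusted p = 0.0483). Among the 12 largest rises with a level of at least 6 were also Tifa, an adaptor of innate immune receptors, at 6.55, 7.81 and 7.27 with IFN gamma and 3.01, 2.99 and 3.34 in mock, and Apol6, of the apolipoprotein L family, at 6.89, 6.25 and 6.61 against 2.68, 2.56 and 2.54 in mock (4.10 ± 0.41 and 3.99 ± 0.30, adjusted p = 0.00059 and 9.9e-05).

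**Figure D3:**
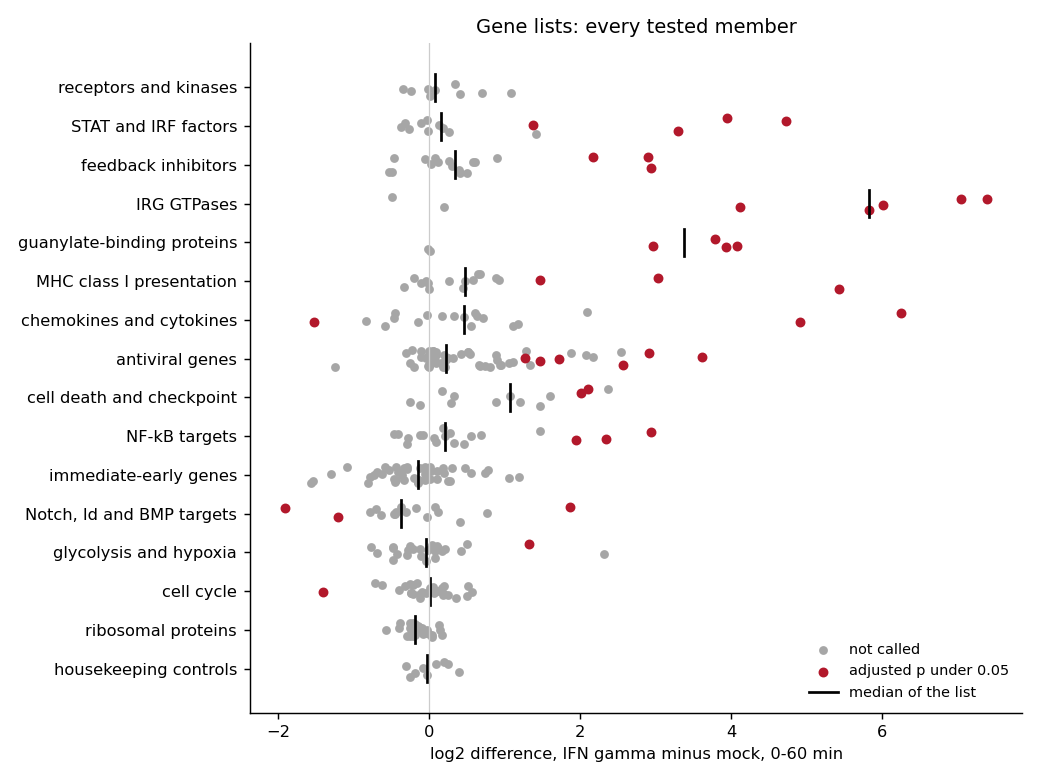
Log2 difference between IFN gamma and mock over 0-60 min for every tested member of 16 gene lists (rows), with called genes in red and the list median as a black bar. The IRG GTPases have a median of 5.82 and the guanylate-binding proteins of 3.38, while the receptors, immediate-early genes, ribosomal proteins and housekeeping controls have no called member.

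Among the genes that fell were regulators of signalling, transcription and the cell cycle. Edn1, the vasoactive peptide endothelin-1, read 4.19, 4.38 and 4.88 with IFN gamma and 6.69, 6.60 and 6.80 in mock (-2.22 ± 0.30, adjusted p = 0.00363). Hes1, a repressor downstream of Notch, was at 6.37, 6.89 and 6.67, against 9.17, 8.41 and 8.10 in mock (-1.92 ± 0.29, adjusted p = 0.00808; -1.61 ± 0.22 without mock array 1). Ccnd1, the cyclin that drives cells into S phase, had 8.81, 8.72 and 8.61 with IFN gamma and 10.60, 9.87 and 9.88 in mock (-1.40 ± 0.21, adjusted p = 0.00808). In all 3 every IFN gamma array lay below every mock array, as in all 14 fallers. The rule for naming falls required this. Rgs4, which shortens G protein signals, fell by 1.63 on the log2 scale (SE 0.21), Nr1d1, a clock repressor, by 2.04 (SE 0.37), Id4, an inhibitor of helix-loop-helix factors, by 1.22 (SE 0.22) and Chac1, a glutathione-degrading enzyme, by 1.17 (SE 0.24). Some of these calls rested on few arrays: that of Chac1 (adjusted p = 0.0455) was lost under the block (0.0545) and when any array but mock array 1 was left out. Id4 lost its call in 4 of the 6 fits that left out 1 array, Nr1d1 in 3 and Ccnd1 in 2. Other probe sets of Rgs4 differed by -0.78 and -0.42 and those of Id4 by -0.59 and -1.43, and none was called. Those of Ccnd1 differed by -1.17, which was called, and by -0.61, which was not. Of 17 Notch, Id and BMP genes 2 fell, Hes1 and Id4, and 1 rose, Notch1 itself (1.86 ± 0.34, adjusted p = 0.0252). With the array block 3 fell and 1 rose. The call for Notch1 was lost when any array but mock array 1 was left out, and its other probe set differed by 1.46 and was not called. Of 31 cell cycle genes 1 fell, Ccnd1, and none rose.

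Without mock array 1 further genes fell. Dusp1, a phosphatase that switches off MAP kinases, read 9.17, 10.31 and 10.16 with IFN gamma and 11.07, 11.61 and 11.67 in mock. The difference was -1.57 ± 0.34 with all arrays (adjusted p = 0.0612), -1.76 ± 0.35 without mock array 1 (adjusted p = 0.0357) and was called with the block (adjusted p = 0.00152). The linker histone gene H1f2 differed by -1.67 ± 0.32 and Nppb, a natriuretic peptide gene, by -1.48 ± 0.31 without mock array 1 (adjusted p = 0.0297 and 0.0486), and neither was called with it unless the array block was added (adjusted p = 0.00141 and 0.0107). Dusp1 belongs to the immediate-early genes, of which 46 were tested: 0 were called with all arrays, 3 were lower without mock array 1 (Dusp1, Per1 and Nr4a2), and 3 higher and 3 lower with the block. Fos, the best known of them, was high in both groups, at 11.71, 12.46 and 12.50 with IFN gamma and 10.94, 11.87 and 12.46 in mock (0.47 ± 0.36). Of 25 genes of glycolysis and hypoxia 1 rose: Hk2, the first enzyme of glycolysis, with 12.16, 12.01 and 12.40 against 10.83, 10.86 and 10.90 in mock (1.32 ± 0.16, adjusted p = 0.00202). Bnip3, a mitochondrial protein of the hypoxia response, read 7.97, 8.10 and 7.79 with IFN gamma and 4.29, 6.32 and 6.31 in mock, and was called without mock array 1 (1.64 ± 0.25, adjusted p = 0.00674) and not with it (2.31 ± 0.49, adjusted p = 0.0581). None of the 30 ribosomal protein genes, 15 non-coding host genes, 9 housekeeping controls or 21 fibroblast markers was called; Actb differed by -0.08 ± 0.14.

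Set against IFN alpha over the same hour, IFN gamma gave higher levels of 48 of 9549 genes (0.503%) and lower levels of 28 (0.293%). Mock array 1 lends its spread to this fit, and without it the counts were 99 (1.04%) and 100 (1.05%); with the array block they were 65 (0.681%) and 71 (0.744%). The 5 largest differences in favour of IFN gamma were Ccl11, Cyp26b1, Tifa, Ggct and Il18rap. Ccl11, the eosinophil chemokine eotaxin, was read at 5.71, 7.12 and 5.85 with IFN gamma and 3.09, 3.11 and 3.02 with IFN alpha (3.15 ± 0.33, adjusted p = 0.005). Il18rap, a subunit of the IL-18 receptor, had 6.99, 6.83 and 5.94, against 4.23, 4.16 and 4.19 with IFN alpha (2.39 ± 0.30, adjusted p = 0.00838). The mock arrays of Ccl11 averaged 3.04, close to those with IFN alpha. Cyp26b1, which degrades retinoic acid, differed by 2.95 ± 0.55 and Ggct, an enzyme of glutathione turnover, by 2.40 ± 0.37 (adjusted p = 0.0452 and 0.0163); each lost its call in 5 of the 7 fits that left out 1 array, with an adjusted p of up to 0.217 and 0.0947. Tifa lost its call in 2 of these. The 5 largest in favour of IFN alpha were all antiviral or type I feedback genes. Ifit1 read 6.54, 8.79 and 5.91 with IFN gamma and 12.16, 13.12 and 11.84 with IFN alpha (-5.29 ± 0.78, adjusted p = 0.0149), a call lost in 4 of the 7 fits that left out 1 array (adjusted p of up to 0.0847). Usp18 differed by -5.39 ± 0.68, Ifit3 by -5.39 ± 0.63, Mx2 by -4.76 ± 0.47 and the RNA sensor Ddx58 by -3.45 ± 0.40 (adjusted p = 0.00838, 0.00619, 0.00435 and 0.00619); of these Usp18 alone lost its call, in 1 of the 7 fits (adjusted p = 0.0509). Of the 58 antiviral genes 2 were higher and 16 lower with IFN gamma than with IFN alpha.

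The GTPases gave no such difference. Of 7 IRG genes and 6 guanylate-binding protein genes 0 were called between the interferons in the fit without a block. Igtp read 10.14, 10.11 and 10.03 with IFN gamma and 9.19, 10.07 and 8.96 with IFN alpha (0.69 ± 0.41), and Gbp2 read 9.38, 9.25 and 8.56 against 8.79, 10.36 and 8.22 (-0.05 ± 0.48). A missed threshold does not show that the interferons act alike on these genes. Gbp3 was lower with IFN gamma under the array block (-1.13 log2 units, adjusted p = 0.0237). Among the factors and inhibitors at the head of the pathway, Irf1 was higher with IFN gamma by 1.32 ± 0.21 and Socs3 by 1.11 ± 0.17 (adjusted p = 0.0184 and 0.016), whereas Stat2 (-0.16 ± 0.45) and Irf9 (-0.49 ± 0.26) were not called. Socs1 (1.62 log2 units) and Cxcl9 (4.10) were called higher with the array block (adjusted p = 0.0491 and 0.0163). In the fit with all arrays and no block neither was called (0.135 and 0.0522).

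**Figure D4:**
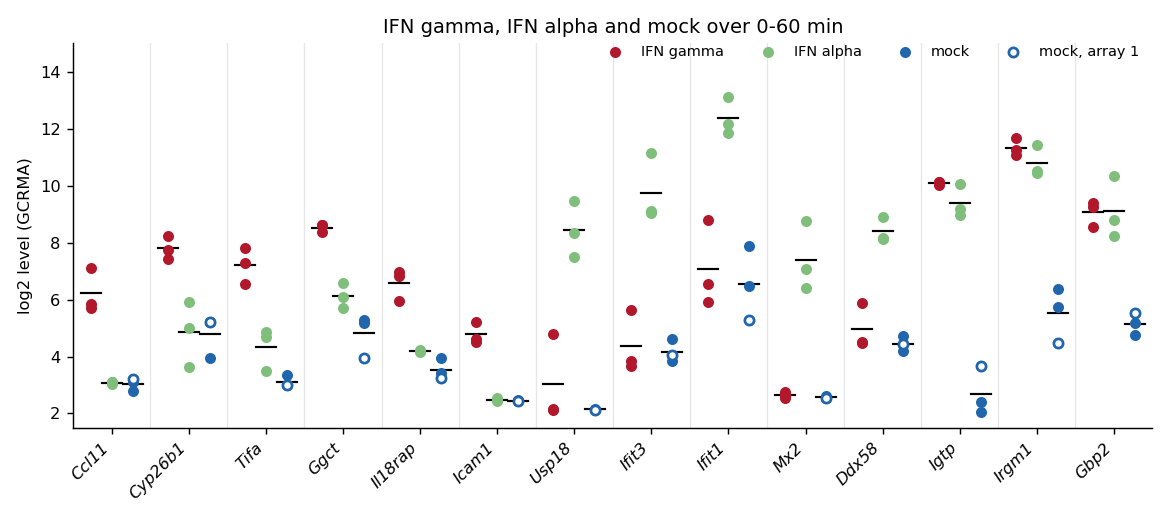
Log2 level of 14 genes on each array over 0-60 min, with IFN gamma (red) left, IFN alpha (green) in the middle and mock (blue, array 1 open) right, and black bars at the group means. Ccl11 to Icam1 stand higher with IFN gamma, Usp18 to Ddx58 higher with IFN alpha, and Igtp, Irgm1 and Gbp2 are well above mock with both.

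An hour of labelling collects RNA from its early and its late minutes, and the response was therefore set beside that of the 30 min windows. In the fit of each window's own arrays, IFN gamma raised 94 genes (0.984%) and lowered 20 (0.209%) over 0-30 min, and raised 315 (3.3%) and lowered 148 (1.55%) over 30-60 min. Of the 106 risers of the full hour 60 (56.6% of them, and 63.8% of the early risers) were called over 0-30 min, and 99 (93.4%, and 31.4% of the later risers) over 30-60 min. Their median log2 difference was 0.84 over 0-30 min, 2.30 over 30-60 min and 2.00 over 0-60 min, and for 69 of the 106 the value of the hour lay between those of the 30 min windows. Of the 14 fallers 4 were called over 0-30 min and 10 over 30-60 min, with medians of -0.32, -0.99 and -1.19 in the same order. For 11 of the 14 the fall over the hour was larger than in either 30 min window. Risers and fallers alike were picked by their values over 0-60 min, which favours that window, so these values do not compare the windows evenly. Mock array 1 also bears on them: Hes1 differed by -1.90 over 30-60 min, and over the hour by -1.92 with that array and -1.61 without it. The windows differ in 4sU dose and labelling time as well as in the minutes covered, so these cannot be told apart.

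The signed log2 difference was higher over the hour than over 0-30 min for 38 genes (0.398%) and lower for 9 (0.0943%). These counts come from the test of the difference between the responses. A lower value can be a deeper fall as well as a weaker rise. Without mock array 1 the counts were 66 (0.691%) and 21 (0.22%), and with the array block 74 (0.775%) and 40 (0.419%). The 5 with the largest gain were Stat2, Samhd1, C1s1, Il18rap and Gbp2. Samhd1 differed between IFN gamma and mock by 0.74 over 0-30 min, 4.55 over 30-60 min and 3.61 over 0-60 min, a gain of 2.87 ± 0.31 over that of 0-30 min (adjusted p = 9.49e-05). C1s1, a protease of the complement pathway, differed by 0.77, 2.80 and 3.64 in these windows and Il18rap by 0.19, 3.44 and 3.05. Icam1 averaged 2.38 in both groups over 0-30 min, near the bottom of the scale, and was not called there (adjusted p = 0.999). It differed by 2.49 over 30-60 min and 2.34 over 0-60 min. Irf1, Socs3 and Irf9 were already called over 0-30 min, whereas Stat2 (1.06, adjusted p = 0.0907) and Stat3 (-0.15, adjusted p = 0.999) were not. Over 0-30, 30-60 and 0-60 min Irf1 differed by 5.14, 5.86 and 4.73, Socs3 by 2.80, 3.45 and 2.90, and Irf9 by 2.78, 3.24 and 3.30. Among the falls, Edn1 differed by 0.07 over 0-30 min, -0.97 over 30-60 min and -2.22 over 0-60 min, a change of -2.29 ± 0.34 against 0-30 min (adjusted p = 0.00279). Its mock mean was 7.82 over 0-30 min, 5.87 over 30-60 min and 6.70 over 0-60 min. Rgs4 differed by -0.31, -1.61 and -1.63 and Hes1, which was early, by -1.23, -1.90 and -1.92.

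**Figure D5:**
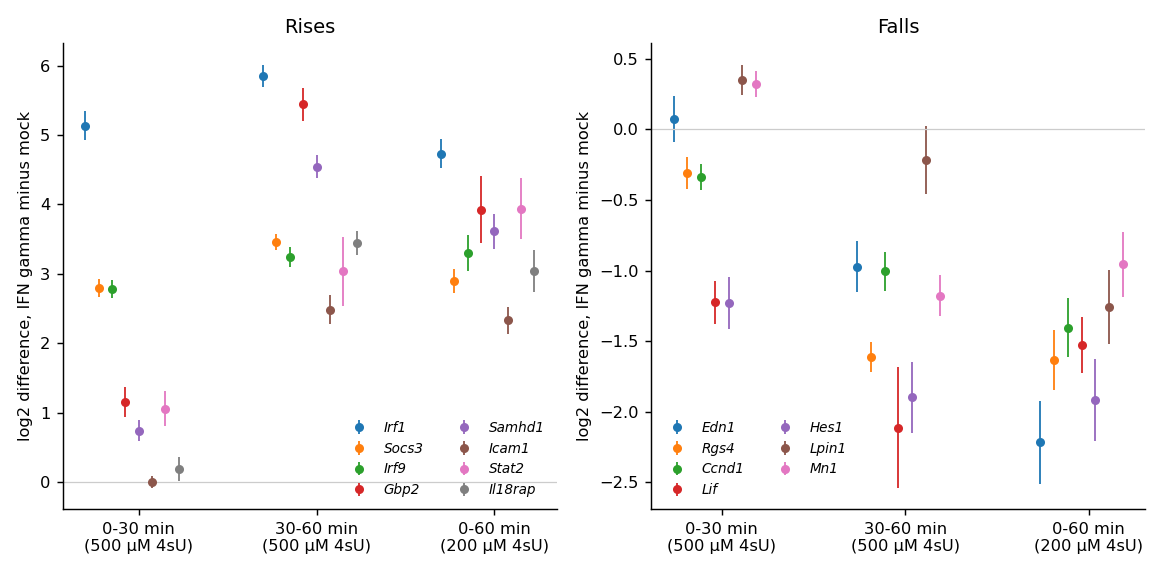
Log2 difference between IFN gamma and mock in the 0-30, 30-60 and 0-60 min windows, each from the fit of its own 9 arrays, with bars of ± 1 SE; rises on the left, falls on the right, colours for genes. Irf1, Socs3 and Irf9 are above 2.7 in every window, Icam1 and Il18rap are near 0 over 0-30 min, and Edn1 is near 0 over 0-30 min and at -2.22 over 0-60 min.

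Against 30-60 min, the response over the hour differed in 2 genes, 1 larger and 1 smaller (0.0105% each), where 216 and 261 had an unadjusted p under 0.05. Ripk3 was the larger one, with differences of 0.84 over 0-30 min, 0.46 over 30-60 min and 2.01 over 0-60 min (1.55 ± 0.25, adjusted p = 0.0413, and 0.0688 without mock array 1). Its 30-60 min means were 3.07 with IFN gamma and 2.60 in mock, near the bottom of the scale. Leaving out 1 IFN gamma or mock array of either window left no gene called larger, except for IFN gamma array 3 of 30-60 min. The same held with all probe sets and with no intensity trend. The smaller one was 9330175E14Rik, a long non-coding RNA in the RefSeq gene table, picked out here after its values were seen. It read 2.77, 2.64 and 3.34 with IFN gamma over 0-60 min, against 2.46, 2.46 and 2.43 in mock. Over 0-30 min its mean was 5.39 with IFN gamma and 2.43 in mock, and over 30-60 min 4.76 and 2.45, so the response of 9330175E14Rik in the hour fell short of that over 30-60 min by 1.84 ± 0.23 (SE, adjusted p = 0.00295) and of that over 0-30 min by 2.49 ± 0.23 (adjusted p = 2.09e-05). With the array block 4 genes had a higher log2 difference (0.0419%) and 17 a lower one (0.178%) than over 30-60 min.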

How the data were processed

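Newly transcribed RNA of NIH-3T3 cells was hybridised to Affymetrix mouse arrays, 36 in all. The log2 values were deposited by the authors for 45101 probe sets and were made with GCRMA, which corrects background and normalizes arrays, per the submitters' processing notes; its version is not given in the sources used here. They ran from 1.34 to 14.82, with array medians of 3.13 to 3.27, and were not scaled again. Of the probe sets, 34945 had 1 symbol in the platform annotation, 932 several, 9160 none, and 64 were controls; 34741 matched the RefSeq gene table (GRCm38.p6) by gene ID. Probe sets over log2 4 in at least 3 of 36 arrays were kept (21874). Each gene was read from the kept single-symbol one with the highest mean, giving 9549 genes and 8433 unused probe sets with 1 symbol. The other 3892 kept had several symbols or none. No columns lacked a sample and no arrays were duplicates.

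Levels were fitted with limma 3.58.1 (R 4.3.3, data.table version 1.17.8; Python 3.11.15 with pandas 2.3.3 and matplotlib 3.10.9 for counts, promoters and figures) by lmFit and eBayes with an intensity trend on the 9 arrays of the 0-60 min window, with 6 residual and 4.1 prior degrees of freedom; response differences between windows used the 18 arrays of 2 windows (12 residual degrees of freedom). Tests were two-sided, with Benjamini-Hochberg adjustment over all genes at 0.05. Errors are standard errors of the fit, n = 3 arrays a group (2 mock arrays without mock array 1). Arrays hold no counts; their number limits the precision.

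Array numbers paired the samples. Over the 0-60 min arrays, deviations from group means correlated above 0.1 for 9 of 9 same-numbered pairs (0.179 to 0.669) and for 1 of 18 others (-0.524 to 0.12). Blocked values therefore stand beside many, though not all, of the results they change. The comparisons, members and gene lists were chosen with earlier results of these data known. Named were a panel, the 12 largest rises and 8 largest falls among called genes with groups that do not overlap and a mean of at least 6 in the higher group, the same without mock array 1, up to 4 called members a list, and the 5 largest in each direction elsewhere. Alternatives were all 36 arrays, the block, other filters, an added 16 before the log, quantile normalization, a common median, all probe sets, no trend, array weights, a 2-fold minimum and leaving out arrays. Chosen after seeing the data were leaving mock array 1 out of the comparison with IFN alpha and the counts of list members without it and with the block. Promoter sequences are from RefSeq (GRCm38.p6).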

Additional observations from a re-analysis of the deposited data

Results flagged for a closer look

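The response to IFN gamma differed between the labelling windows by the test of the difference itself. The log2 difference over 0-60 min was higher than over 0-30 min for 38 genes and lower for 9. The gains of the 5 named first were 2.88 for Stat2, 2.87 for Samhd1, 2.87 for C1s1, 2.85 for Il18rap and 2.77 for Gbp2, in log2 units. Those of Samhd1, C1s1 and Il18rap kept an adjusted p under 0.05 in all 12 fits that left out 1 array, while Stat2 lost it in 6 and Gbp2 in 10. The 5 downward shifts named were -2.29 for Edn1, -1.61 for Lpin1 and -1.32 for Rgs4, then -1.28 for Mn1 and -1.07 for Ccnd1. These differences moved below mock or further below it: Edn1 went from 0.07 to -2.22 and Rgs4 from -0.31 to -1.63. A rise that shrank was that of 9330175E14Rik, by -2.49, whose levels lay under the 6 set for naming. Lpin1 is a phosphatase of lipid synthesis and Mn1 a transcriptional co-regulator. Lpin1 and Mn1 differed from mock by -1.26 ± 0.26 and -0.95 ± 0.23 over 0-60 min, neither called without the block (adjusted p = 0.0525 and 0.105) and both called with it (0.0109 and 0.022). The shifts of Edn1, Lpin1 and Rgs4 were called in all 12 fits that left out 1 array, that of Mn1 was not in 6 and that of Ccnd1 not in 9.

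Against 30-60 min 1 gene was larger and 1 smaller: Ripk3 by 1.55 and 9330175E14Rik by -1.84. No gene was called larger in most of the fits that left out 1 array, so the call of Ripk3 rested on few arrays. The 4sU dose and labelling time differ between these windows and the full hour, and cannot be told apart from the minutes covered.

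Probe sets with several symbols or none lay outside the comparison of named genes. Of 3892 that passed the filter on low values, 33 were higher with IFN gamma than with mock over 0-60 min and 0 were lower by the same limma fit, the largest rise being 6.79. With several symbols there were 7 of 512, and with none 26 of 3380.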

How the results depend on the processing

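Of 93 alternative values of the 4 counts of called genes, 40 stayed within 1.5 times of the value reported. IFN gamma against mock gave 120 called genes, and 643 with all 36 arrays (366 higher, 277 lower), 205 with the replicate block, 328 with array weights, 196 without array 1 of every group, 996 with the replicate block and without mock array 1 together (460 higher, 536 lower), and 62 to 193 when 1 array was left out, 62 without IFN gamma array 2 and 193 without mock array 1. IFN gamma against IFN alpha gave 76, and 383 with all 36 arrays, 136 with the replicate block, 33 with no filter on low values, 341 with array weights, 1156 with the block and without mock array 1, and 17 to 199 leaving out 1 array, 17 without IFN gamma array 3 and 199 without mock array 1. The response over 0-60 min against 0-30 min gave 47, and 83 with all 36 arrays, 114 with the replicate block, 119 with array weights, 82 without array 1 of every group, 463 with the block and without mock array 1, and 20 to 87 leaving out 1 array, 20 without the second mock array of 0-30 min and 87 without mock array 1 of 0-60 min. Against 30-60 min it gave 2, and 25 with all 36 arrays, 21 with the replicate block, 24 with array weights, 4 after adding 16, 1 with the filter over the arrays in the fit, 1 with all probe sets, 1 with no trend, 0 with a filter at log2 6 and 0 without array 1 of every group, 350 with the block and without mock array 1, and 1 to 2 leaving out 1 array. The cause of these shifts was not tested.

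The 61 called values of named genes kept their sign in 1227 alternative values and passed the threshold in 1117 of them. Among the named genes, in IFN gamma against mock, the replicate block ended the call of Chac1 and gave one to Cd274, Dusp1, H1f2, Nppb, Ifnar2, Bcl3, Fas, Lpin1, Mn1 and Per1 (Per1 -1.54, adjusted p = 0.0286), and to H2-D1 and Hoxd9, named outside the rule; it changed no other call of a gene named by the rule in that comparison. The 24 uncalled values kept their sign and stayed uncalled in 355 of 454, passed the threshold in 80 and changed sign, still uncalled, in 19. With the replicate block and without mock array 1 together these were Actb (0.0090), Ifngr2 (0.16) and Jak2 (-0.14). With array weights Ifngr2 gave 0.033 and Jak2 -0.015, without array 1 of every group they gave 0.067 and -0.10, and Nlrc5 gave 0.016 with arrays at a common median. When 1 array was left out, Ifit1 ranged from -0.32 to 1.21, Mx1 from -0.12 to 0.096, Ifngr1 from -0.13 to 0.32, Ifngr2 from -0.44 to 0.056 and Jak2 from -0.10 to 0.14. The spread between arrays and the background at low levels limit what 3 arrays a group can show.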

Other observations

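Genes that lie side by side rose together in places; those named here were picked after their values were seen, and being neighbours was not tested against chance. Of 4 genes of the Hoxd cluster tested, which encode or accompany homeobox factors of the body axis, 3 rose. Hoxd3os1, a long non-coding RNA, read 10.18, 9.26 and 9.60 with IFN gamma and 6.14, 6.46 and 6.01 in mock (3.48 ± 0.33, adjusted p = 0.000471). Hoxd8 had 9.04, 9.43 and 9.32, against 6.42, 7.48 and 7.78 in mock (2.04 ± 0.32, adjusted p = 0.00992), and Hoxd3 rose by 1.71 ± 0.24 (adjusted p = 0.00471). Hoxd9 lay 1.26 ± 0.27 above mock without a call (adjusted p = 0.0627, and 0.026 with the array block). A second probe set of Hoxd3os1 differed by 1.88 and one of Hoxd8 by 1.93, both called. The 9 homeobox genes tested from the other 3 Hox clusters gave 0 calls, with differences from -0.87 to -0.04. Non-coding transcripts of those clusters were not counted, whereas the Hoxd count takes in Hoxd3os1. This contrast between clusters was not tested either. Hoxd3 and Hoxd3os1 overlap in the GRCm38.p6 gene table. Over 0-30 min Hoxd3os1 and Hoxd8 already differed by 2.02 and 1.14 (adjusted p = 1.62e-06 and 3.6e-05). Steap1 and Steap2, metalloreductase family genes that are neighbours, rose by 1.89 ± 0.21 and 1.83 ± 0.22 over the hour (adjusted p = 0.00126 and 0.00226).

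Some further genes outside the lists rose, picked after their values were seen. C1s1 and C1ra, the proteases of complement C1, rose by 3.64 ± 0.28 and 2.08 ± 0.33 (adjusted p = 0.000114 and 0.0116), and Serpina3n, a secreted protease inhibitor, by 3.42 ± 0.32 (adjusted p = 0.000427). Among genes of cytokine receptor chains, Il13ra1 rose by 1.80 ± 0.31, Il4ra by 1.53 ± 0.26 and Osmr by 1.16 ± 0.16 (adjusted p = 0.0159, 0.0165 and 0.00363). Their other probe sets, 3 of Il13ra1, 1 of Il4ra and 2 of Osmr, differed in the same direction and none was called. On the probe sets used every IFN gamma array lay above every mock array, as for all 106 risers. None of the 3 receptor genes was called over 0-30 min (adjusted p of 0.566 to 0.999).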
